A study of Mus musculus with 9 samples.

Results

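Scaper, Slc25a35 and Rgs11 are 3 of the 2889 genes in the sample table of this series. They were chosen by their measured levels: the transcripts fell about 4-fold or more when mouse T cells were kept in stromal conditioned medium instead of unconditioned medium. That difference is described here without a test. What the choice did not use is the third medium: in adipocyte conditioned medium the 3 genes parted, with Slc25a35 low again, Rgs11 near its unconditioned level on the authors' scale and Scaper above it.

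The cells were polyclonal CD3+ T cells from the spleens of 3 C57BL/6 mice of genotype WT, taken by negative selection, in which antibodies remove the other cell types. Each mouse gave 1 sample per medium, so there are 3 samples in unconditioned medium (RPMI, treatment none), 3 in adipocyte conditioned medium and 3 in stromal cell conditioned medium, all after 4 h of incubation. The source of the adipocytes and stromal cells, and the age and sex of the mice, are not stated in the labels. RNA was sequenced in bulk, so fewer cells of a type and less RNA per cell cannot be told apart.

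SCAPER is a protein of the endoplasmic reticulum that binds cyclin A and its partner kinase, the pair that drives cells through S phase, and its loss in people causes retinal degeneration with intellectual disability. SLC25A35 belongs to the SLC25 family, carriers that move metabolites across the inner mitochondrial membrane, and it is among the family members whose substrate is not settled. RGS11 is a regulator of G protein signalling. RGS proteins speed up GTP hydrolysis by G protein alpha subunits and so shorten the signal of receptors, chemokine receptors of T cells among them, and RGS11 itself is best known from retinal bipolar cells, where it works bound to the beta subunit encoded by Gnb5.

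The genes lie on 3 chromosomes, Scaper on chromosome 9, Slc25a35 on chromosome 11 and Rgs11 on chromosome 17. In the GENCODE M21 annotation Scaper spans 388 kb with 5.43 kb of exon, Slc25a35 spans 6.24 kb with 3.68 kb of exon, and Rgs11 spans 8.37 kb with 4.21 kb of exon. Exons of Rangrf on the opposite strand cover 31.3% of the exon bases of Slc25a35, and exons of Arhgdig on the opposite strand cover 3.28% of those of Rgs11. The libraries did not keep strand, so reads from these shared stretches cannot be assigned to 1 gene. Neither Rangrf nor Arhgdig is among the 2889 genes, and the same holds for the 2 nearest protein-coding neighbours on each side of all 3 members.

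A promoter sequence is shown for Scaper, the member that on the authors' scale lay below its unconditioned level in stromal and above it in adipocyte medium. The 300 bases run from 250 before to 50 after a RefSeq start of the gene, on the minus strand at chr9:55938070-55938369 of GRCm38.p6. Capitals mark the E-box CACGTG and the GC box GGGCGG on either strand. The E-box overlaps no GC box, while in each of the 2 longer runs a pair of GC boxes shares 1 base.
Scaper promoter: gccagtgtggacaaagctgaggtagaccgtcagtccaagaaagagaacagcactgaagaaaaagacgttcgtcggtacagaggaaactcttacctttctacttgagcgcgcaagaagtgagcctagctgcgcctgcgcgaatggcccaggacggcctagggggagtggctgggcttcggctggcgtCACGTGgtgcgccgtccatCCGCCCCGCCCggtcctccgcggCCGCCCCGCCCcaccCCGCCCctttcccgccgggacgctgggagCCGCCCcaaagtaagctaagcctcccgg
The window is 65% G and C, against a median of 52.7% over the 32851 promoter windows of the same length. It holds 6 GC boxes, a motif that 35.7% of those windows hold at least once, and 1 E-box, held by 7.15%. It has 0 matches to TTCNNNGAA, the site shape bound by STAT factors, which 8.30% of windows hold, and 0 to the core of the interferon-stimulated response element, which 3.44% hold. It also has 0 matches to CCAAT (37.4%), TATAAA (13.6%) and TGACGTCA (1.79%). A second RefSeq start near the other end of the gene has a window of 43.0% G and C, with 0 GC boxes and 0 E-boxes. These matches describe the sequence and say nothing of what binds there.

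Scaper stood at 1261, 1173 and 1292 normalized counts in unconditioned medium for mice 1, 2 and 3, where a normalized count is a read count divided by the authors' size factor for that library. In stromal medium it stood at 229, 343 and 172, and in adipocyte medium at 1973, 1689 and 2480. The order was adipocyte above unconditioned above stromal in each mouse, and no 2 media overlapped. Over all tested genes, 44.2% lay lower without overlap in stromal than in unconditioned medium, 33.6% lay higher without overlap in adipocyte than in unconditioned medium and 33.4% did so in adipocyte against stromal medium.

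Slc25a35 stood at 753, 920 and 841 normalized counts in unconditioned medium. It was at 152, 173 and 200 in stromal medium and at 127, 211 and 251 in adipocyte medium. Both conditioned media lay below every unconditioned sample, as 63.4% of tested genes did in adipocyte and 44.2% in stromal medium. The conditioned media overlapped each other: in mouse 1 the adipocyte sample was the lower one, and in mice 2 and 3 the stromal sample was.

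Rgs11 stood at 854, 867 and 929 normalized counts in unconditioned medium. It was at 160, 273 and 251 in stromal medium and at 830, 765 and 926 in adipocyte medium. The stromal samples lay below all others, and the fall from unconditioned medium is why the gene was chosen. Over all tested genes, 44.2% lay lower without overlap in stromal than in unconditioned medium. In adipocyte against stromal medium 33.4% lay higher without overlap. The adipocyte and unconditioned samples of Rgs11 overlapped, although each adipocyte sample was a little below the unconditioned sample of its mouse.

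**Figure D1:**
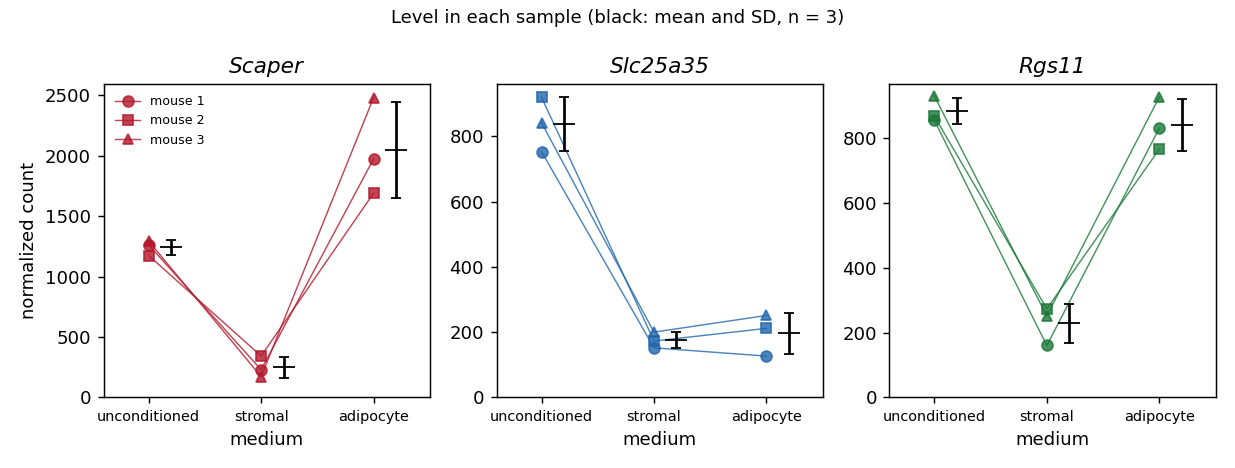
Normalized count (vertical axis, linear from 0) of each gene in the 3 media (horizontal axis), with 1 marker shape per mouse, lines joining samples of a mouse, and the mean and SD of 3 samples in black. All 3 genes are low in stromal medium; in adipocyte medium Scaper lies between 1689 and 2480, Slc25a35 between 127 and 251 and Rgs11 between 765 and 926.

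Per kilobase of the full annotated exon length the genes started from like levels. In unconditioned medium Scaper had 229 ± 11.4 normalized counts per kb, Slc25a35 228 ± 22.7 and Rgs11 210 ± 9.54 (mean ± SD, n = 3). In stromal medium the levels per kb were 45.7 ± 16.0, 47.6 ± 6.55 and 54.3 ± 14.2, so the order of the 3 genes does not stand out from the spread in either medium. Like levels in stromal medium are tied to the like levels in unconditioned medium and to the choice of the genes by their fall. In adipocyte medium they spread out, with Scaper at 377 ± 73.8, Rgs11 at 200 ± 19.3 and Slc25a35 at 53.4 ± 17.3 normalized counts per kb. These lengths are the union of annotated exons and the isoforms present in the cells are not known here. For Slc25a35, 31.3% of the exon bases are shared with Rangrf on the opposite strand, and how reads there were counted is not known. Its level per kb is too low if those reads were dropped and may be too high if they were kept. The likeness of Slc25a35 to the other genes per kb is therefore not settled.

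The fall in stromal medium, for which the genes were chosen, differed in evenness between mice. Scaper was 5.51-fold, 3.42-fold and 7.50-fold lower than in unconditioned medium in mice 1, 2 and 3. Slc25a35 was 4.96-fold, 5.32-fold and 4.21-fold lower, the narrowest range of the 3. Rgs11 was 5.33-fold, 3.17-fold and 3.69-fold lower. The deepest fall was thus in mouse 3 for Scaper, in mouse 2 for Slc25a35 and in mouse 1 for Rgs11.

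Fitted over all 3 mice with limma, the log2 differences between stromal and unconditioned medium were -2.38 (SE 0.21) for Scaper, -2.26 (SE 0.23) for Slc25a35 and -1.98 (SE 0.18) for Rgs11. In the authors' deposited table the log2 fold changes were -2.33, -2.27 and -1.96. By fitted difference Scaper ranked 9, Slc25a35 ranked 12 and Rgs11 ranked 18 from the lowest of 2868 tested genes, of which the median stood at -0.17. The authors listed 602 genes as changed in stromal medium. Of the tested genes, 227 are in that listing alone and 245 in both listings, so these ranks and the next count miss some changed genes. A fitted fall of at least 4-fold was seen in 16 genes, 0.558% of those tested, and Rgs11 lay just outside that line on this scale. Of the 16, 3 had an unconditioned mean of at least 500 normalized counts, namely Scaper, Slc25a35 and Tmem35b, and 8 had one under 50; these level limits were set after the values were seen. The median unconditioned mean was 55.4 normalized counts over the 16 genes and 1082 over all genes tested.

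Just inside the 4-fold line were Apol9b, an apolipoprotein L gene, at -2.11, Ampd3, which encodes an AMP deaminase, at -2.10, and Maneal at -2.02 (log2 difference, stromal minus unconditioned). Just outside were Pcbd2 at -1.99, Ifitm10 at -1.96 and Nxpe4 at -1.95. Ampd3 went from 371 ± 44.6 to 85.7 ± 7.52 normalized counts and Ifitm10 from 587 ± 111 to 151 ± 33.6.

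**Figure D2:**
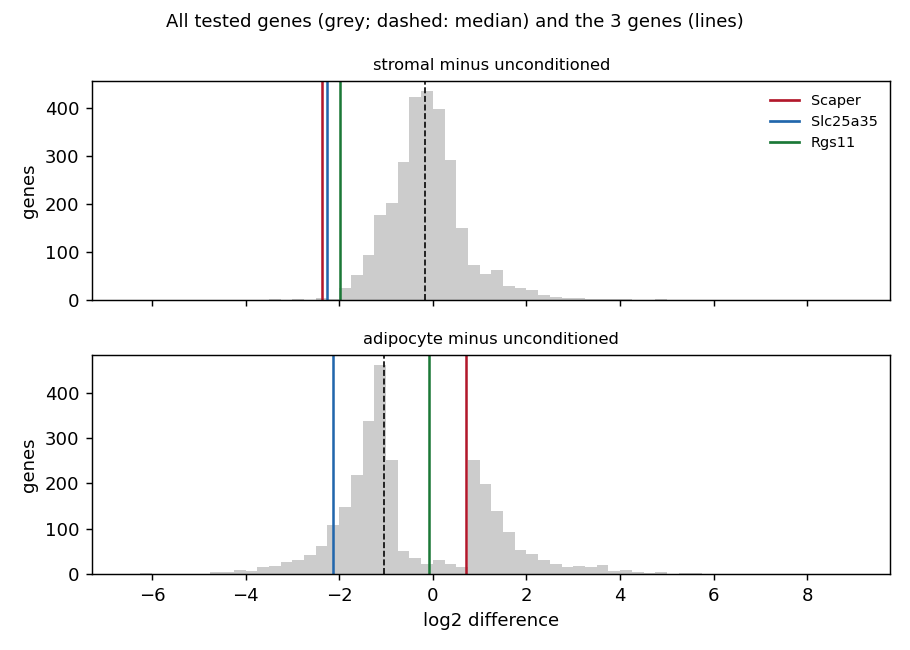
Number of tested genes (vertical axis) by log2 difference from unconditioned medium (horizontal axis), for stromal medium above and adipocyte medium below, with the median gene dashed and the 3 genes as coloured lines. In stromal medium, by whose fall the genes were chosen, the 3 lines lie together in the lower tail, from -2.38 to -1.98. In adipocyte medium they lie at -2.14, -0.075 and 0.70 on the authors' scale.

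In adipocyte medium Scaper rose. Its mean went from 1242 ± 61.7 to 2047 ± 400 normalized counts (n = 3), a log2 difference of 0.70 (SE 0.21, 95% interval 0.25 to 1.16, limma adjusted p = 0.00600). The ratio was 1.56, 1.44 and 1.92 in mice 1, 2 and 3, so it was higher in 3 of 3 mice. The unconditioned samples of this comparison also served to choose the genes, by being high against stromal medium, and so do those of the next 2 values. Among all tested genes 33.8% rose in this comparison and 97.2% passed the threshold in either direction, since the table was built from genes that the authors called changed.

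Slc25a35 fell in adipocyte medium, from 838 ± 83.5 to 196 ± 63.6 normalized counts, a log2 difference of -2.14 (SE 0.23, 95% interval -2.63 to -1.65, limma adjusted p = 1.24e-06). It was 5.95-fold, 4.35-fold and 3.35-fold lower in mice 1, 2 and 3. The unconditioned samples served to choose the gene by being high, which favours a fall in this comparison, so its p is not free of the choice. Lower calls made up 63.4% of the tested genes in this comparison, and the median gene was at -1.03. A fitted fall of at least 4-fold, as Slc25a35 showed, was seen in 11.7% of them.

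Rgs11 did not pass the threshold in adipocyte medium, at 883 ± 40.1 and 840 ± 81.1 normalized counts in unconditioned and adipocyte medium. The log2 difference was -0.075 (SE 0.18, limma adjusted p = 0.684), with a 95% interval of -0.46 to 0.31, which is 0.727-fold to 1.24-fold. This holds on the authors' scale only: with size factors recomputed over the listed genes by TMM the difference was 0.37 (adjusted p = 0.0671), and by the median of ratios it was 0.85 (adjusted p = 0.00138). The direction of Rgs11 in adipocyte medium thus depends on how libraries are put on 1 scale, while that of Scaper and Slc25a35 was the same on all 3 scales (0.70, 1.15 and 1.63 for Scaper and -2.14, -1.69 and -1.22 for Slc25a35).

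Another scaling adds the same amount to every gene. Against the authors' scale, the median of ratios moved the median gene by 0.93 in adipocyte minus unconditioned, by 0.36 in stromal minus unconditioned and by 0.57 in adipocyte minus stromal. Relative to the median gene, a measure that rescaling leaves nearly as it is, Scaper stood 1.74 above it, Rgs11 0.96 above it and Slc25a35 at -1.10 in adipocyte minus unconditioned (log2, authors' scale). In stromal minus unconditioned the same quantity was -2.21 for Scaper, -2.09 for Slc25a35 and -1.82 for Rgs11. The median gene is itself the middle of a selected list and not a gene known to be constant.

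**Figure D3:**
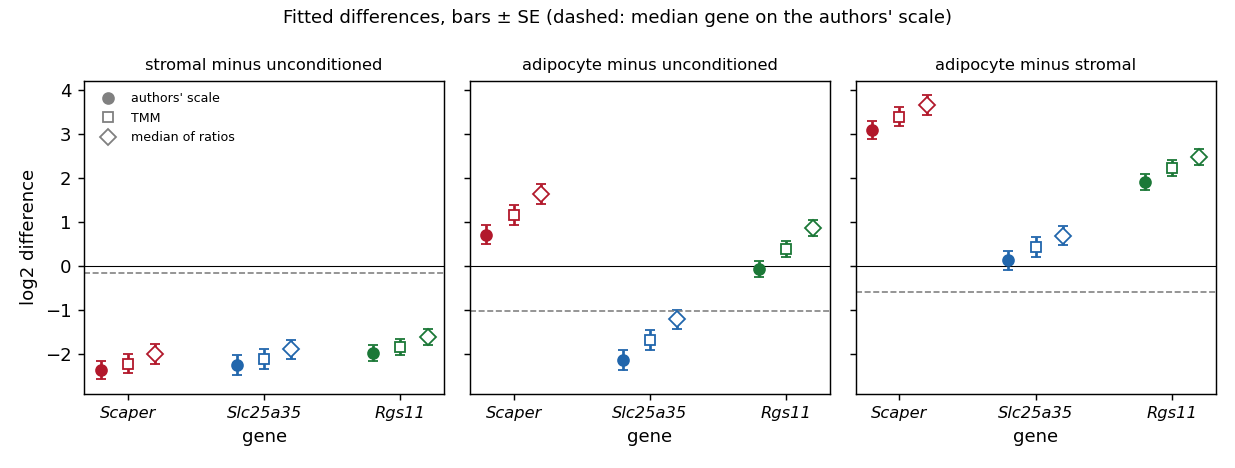
Fitted log2 difference (vertical axis, bars ± SE) of each gene (horizontal axis) in the 3 contrasts, on the authors' scale (filled circles), by TMM (open squares) and by the median of ratios (open diamonds), with the median gene dashed. Rescaling moves all 3 genes up together, and in adipocyte minus unconditioned it takes Rgs11 from -0.075 to 0.85.

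The stromal samples were used to choose the genes, by being low, so the differences between the conditioned media are given as a description with no p. Scaper was 8.45-fold higher in adipocyte than in stromal medium by the fit (log2 difference 3.08, SE 0.21). The ratio was 8.63, 4.93 and 14.4 in mice 1, 2 and 3. Rgs11 was 3.75-fold higher (log2 difference 1.91, SE 0.18), with ratios of 5.18, 2.80 and 3.68. Both sizes include the low stromal values that led to the choice. Over all tested genes 33.8% were called higher in this comparison.

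Slc25a35 had a log2 difference of 0.12 between adipocyte and stromal medium (SE 0.23, 95% interval -0.37 to 0.61), or 0.772-fold to 1.53-fold. Single libraries decide this value: without adipocyte replicate 1 it was 0.40, and without adipocyte replicate 3 it was -0.086. With the median of ratios it was 0.68.

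Ratios of 2 members within a library do not depend on any scaling. Scaper had 1.48, 1.35 and 1.39 reads for each Rgs11 read in unconditioned medium (mice 1, 2 and 3) and 2.38, 2.21 and 2.68 in adipocyte medium. All adipocyte libraries lay above all unconditioned ones, so these 2 genes changed unequally there. In stromal medium the ratio was 1.43, 1.26 and 0.686, with mouse 3 apart from the other 2.

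Rgs11 had 1.13, 0.942 and 1.10 reads for each Slc25a35 read in unconditioned medium and 6.56, 3.62 and 3.69 in adipocyte medium. In stromal medium the ratio was 1.05, 1.58 and 1.26, which overlaps the unconditioned values. The ratio of Scaper to Slc25a35 was 1.68, 1.28 and 1.54 in unconditioned medium, 1.51, 1.98 and 0.862 in stromal medium and 15.6, 7.99 and 9.88 in adipocyte medium. In stromal medium all 3 ratios overlapped the unconditioned values, whereas in adipocyte medium all 3 lay above them. The overlap in stromal medium is tied to the choice of the genes by their fall there and is no separate result. Ratios of other gene pairs were not computed.

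**Figure D4:**
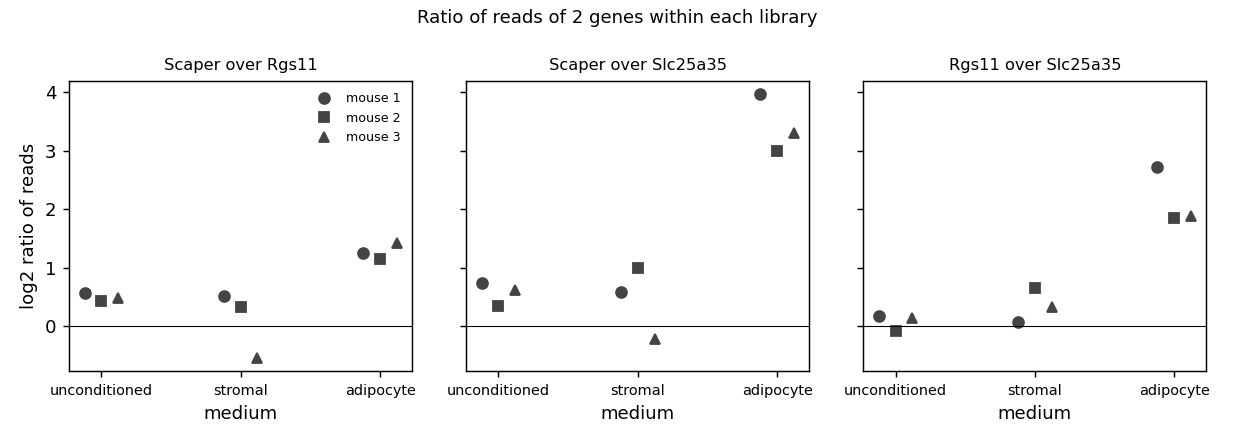
Log2 ratio of the reads of 2 genes in each library (vertical axis) by medium (horizontal axis), 1 marker shape per mouse. The adipocyte libraries lie highest in all 3 panels, from 1.14 to 1.42 for Scaper over Rgs11, 3.00 to 3.96 for Scaper over Slc25a35 and 1.85 to 2.71 for Rgs11 over Slc25a35.

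In unconditioned, stromal and adipocyte medium Scaper had 883 to 1458, 144 to 520 and 1372 to 2538 reads per library. Slc25a35 had 527 to 1058, 167 to 262 and 88 to 257, and Rgs11 had 598 to 1048, 192 to 414 and 577 to 948. The lowest value, 88 reads of Slc25a35 in adipocyte replicate 1, has an exact 95% Poisson interval of 70.6 to 108 reads, which covers counting error only.

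The spread between mice differed between media. Scaper had a coefficient of variation of 35.0% in stromal, 19.6% in adipocyte and 4.97% in unconditioned medium. Slc25a35 varied by 13.8%, 32.4% and 9.97% and Rgs11 by 26.2%, 9.65% and 4.54% in the same order. Counting of reads alone would give 2.35% to 8.06% over these groups, and each value rests on 3 samples.

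The authors sorted the table into 4 clusters, and all 3 members are in cluster 3, which holds 226 genes. Slc25a35 is in both of the authors' tables, while Scaper and Rgs11 are in the stromal table only. Of the 227 tested genes listed in the stromal table only, 46 rose, 101 fell and 80 did not pass the threshold in adipocyte minus unconditioned (median -0.27, range -1.65 to 1.55). Scaper was thus 1 of the 46 and Rgs11 1 of the 80. The authors' scores are set against a minimum fold change, whereas the calls here are against no change. A gene such as Scaper can therefore pass here and be absent from the authors' adipocyte table. In the authors' deposited table Slc25a35 had a log2 fold change of -2.12 (standard error 0.17) in adipocyte medium.

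Over the 9 samples, log2 levels of Scaper and Rgs11 had a Pearson r of 0.94, Rgs11 and Slc25a35 of 0.56, and Scaper and Slc25a35 of 0.33. The points fall into 3 media, and samples of a medium share its whole response, so these values describe the order of the media more than anything within them. Of 2799 named genes, Ggt1, Aff3 and Pyroxd2 had the pattern most like Scaper, with r of 0.984, 0.983 and 0.982. Ggt1, which encodes a gamma-glutamyltransferase of glutathione breakdown, stood at 350 ± 56.9 normalized counts in unconditioned, 92.2 ± 22.4 in stromal and 556 ± 42.7 in adipocyte medium. Aff3, a nuclear factor gene of lymphoid cells, stood at 3488 ± 182, 1713 ± 231 and 3868 ± 491.

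Slc25a35 was most like Tpcn1, which encodes a two-pore channel of endosomes and lysosomes (r = 0.994), Mgst2, a microsomal glutathione transferase gene (r = 0.986), and Sfxn4, a mitochondrial sideroflexin gene (r = 0.984). Tpcn1 stood at 922 ± 28.4, 421 ± 33.8 and 414 ± 85.4 normalized counts in unconditioned, stromal and adipocyte medium. Rgs11 was most like Carmil2, which encodes a regulator of actin capping that acts in T cell costimulation (r = 0.996), Adgre5, the gene of the adhesion receptor CD97 (r = 0.995), and Rsrc1 (r = 0.990). Adgre5 went from 28562 ± 2139 to 7793 ± 1156 in stromal medium and stood at 26804 ± 2146 in adipocyte medium. At r of at least 0.95 there were 11 genes for Scaper, 78 for Slc25a35 and 31 for Rgs11.

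Related genes are given by list, with the members left out of the counts. Beside Rgs11, 7 of the 56 RGS and G protein genes listed for comparison were tested. In stromal minus unconditioned 4 rose and 2 fell (median 0.45, against -0.17 for all tested genes, of which 57.7% passed the threshold, 21.1% higher and 36.6% lower), and in adipocyte minus unconditioned 4 rose and 2 fell (median 1.12). Over all tested genes in adipocyte minus unconditioned, 33.8% rose and 63.4% fell, with a median of -1.03. Both counts of the list were the same by TMM and by the median of ratios. Rgs1 and Rgs16, RGS genes induced by T cell activation, rose in both conditioned media. Their log2 differences were 1.01 and 0.62 with stromal medium and 2.17 and 1.33 with adipocyte medium. Gna13, a G protein alpha subunit gene, rose as well, with log2 differences of 0.45 and 1.69.

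Rgs14, which encodes an RGS protein with a second G alpha binding motif, fell in both conditioned media, with log2 differences of -0.70 in stromal and -1.82 in adipocyte medium. Gng4, a gamma subunit gene, had the values closest to those of Rgs11 in this list: it fell in stromal medium, from 240 ± 79.0 to 65.6 ± 12.5 normalized counts (log2 difference -1.82, limma adjusted p = 0.00100), and was at -0.13 in adipocyte medium (adjusted p = 0.734). Gng4 was singled out after its values were seen.

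Of the other genes for mitochondrial carriers and their relatives, 11 of 59 listed were tested beside Slc25a35. In stromal minus unconditioned 1 rose, 5 fell and 5 did not pass the threshold, with differences from -0.95 to 0.42 and a median of -0.30. Over all tested genes 21.1% rose and 36.6% fell there, with a median of -0.17. By the median of ratios 3 carriers rose and 2 fell (median 0.061). In adipocyte minus unconditioned 2 rose and 9 fell (median -1.42), where 33.8% of all tested genes rose and 63.4% fell (median -1.03). By the median of ratios 2 rose and 7 fell. Slc25a35 at -2.26 lay below all 11 in stromal medium, which restates why it was chosen.

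Slc25a10, the dicarboxylate carrier gene, rose by 0.42 in stromal medium and fell by 2.63 on the log2 scale in adipocyte medium. Slc25a11, the oxoglutarate carrier gene, fell in both, with log2 differences of -0.44 and -2.01, though by the median of ratios its fall in stromal medium did not pass the threshold. Ucp2, an uncoupling protein gene, and Slc25a1, the citrate carrier gene, were at -0.17 and 0.19 in stromal medium without passing the threshold and fell in adipocyte medium, with log2 differences of -2.29 and -1.53. By the median of ratios these 4 genes were still lower in adipocyte medium, and Slc25a1 joined Slc25a10 among those that rose in stromal medium.

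Beside Scaper, 9 of the 40 genes listed for cyclin A and S phase were tested. In stromal minus unconditioned 4 rose, 1 fell and 4 did not pass the threshold (median 0.15), and in adipocyte minus unconditioned 4 rose and 5 fell (median -1.11). The shares over all tested genes were 21.1% higher and 36.6% lower in the first comparison and 33.8% and 63.4% in the second. By the median of ratios the list had 6 higher and 1 lower in stromal and 4 higher and 2 lower in adipocyte medium, while all tested genes turned to 1129 higher and 561 lower and to 1078 higher and 1047 lower. Ccna2, which encodes the cyclin A of dividing somatic cells, was at -0.35 in stromal medium (limma adjusted p = 0.111) and fell by 2.11 on the log2 scale in adipocyte medium. Cdkn1a, the gene of the cyclin-dependent kinase inhibitor p21, rose by 1.67 and by 2.03. Ccne2, a cyclin E gene, was at 0.14 in stromal medium (adjusted p = 0.370) and rose by 1.44 in adipocyte medium, and E2f2, a transcription factor gene of S phase entry, fell in both (-1.05 and -1.84). Ccne2 also passed the threshold in stromal medium by the median of ratios. In adipocyte medium Scaper rose and Ccna2 fell on all 3 scales.

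**Figure D5:**
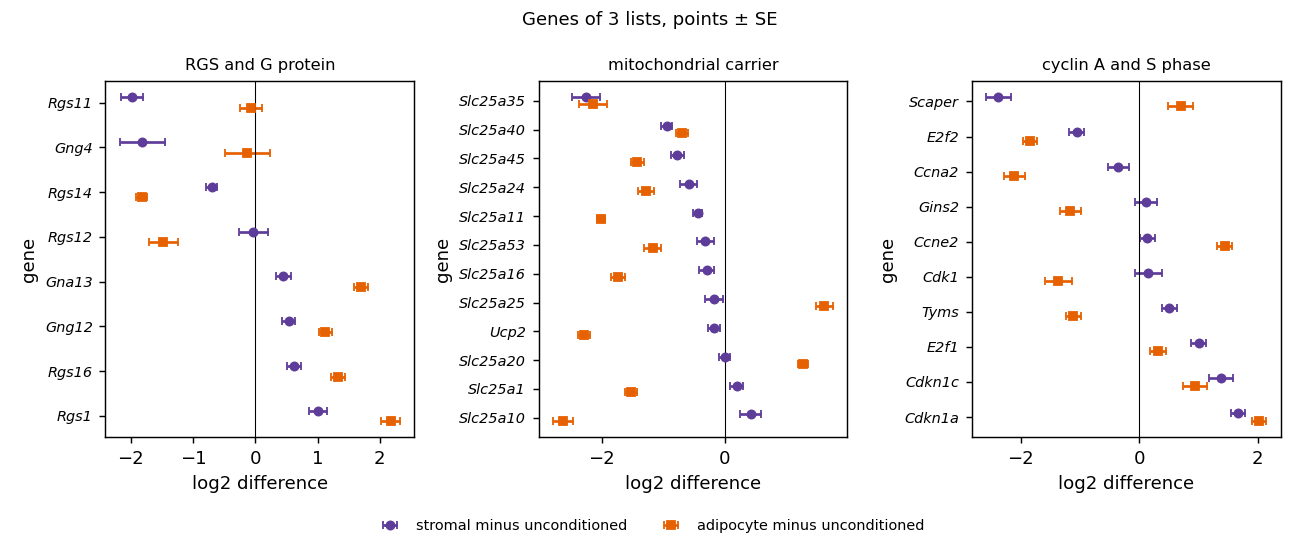
Fitted log2 difference (horizontal axis, bars ± SE) of the tested genes of 3 lists (vertical axis), with the member of each list on top, for stromal minus unconditioned (circles) and adipocyte minus unconditioned (squares). The members are lowest in their lists in stromal medium, which restates why they were chosen. On the authors' scale Scaper is the one member above 0 in adipocyte medium.

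Reads on the listed genes came to between 6522742 and 13758643 per library. Calls split into 606 higher and 1049 lower in stromal minus unconditioned (1129 and 561 by the median of ratios, 796 and 814 by TMM), 969 and 1818 in adipocyte minus unconditioned (1078 and 1047 by the median of ratios) and 968 and 1641 in adipocyte minus stromal (1172 and 1091). The T cell markers in the table, 4 of 15 listed (Cd3e, Cd3g, Cd8a and Cd8b1), summed to between 86513 and 97969 normalized counts in unconditioned, 72070 and 73297 in stromal and 32578 and 35237 in adipocyte medium. B cell markers, 5 of 13, summed to between 1925 and 2540, 1443 and 2559, and 481 and 519, and myeloid markers, 8 of 15, to between 4041 and 7766, 3957 and 8923, and 584 and 1119. Natural killer markers, 2 of 8 (Klrd1 and Klre1), summed to between 8810 and 10047, 4251 and 4602, and 4452 and 5147. Neutrophil markers, 5 of 10, summed to between 480 and 1128, 427 and 1161, and 191 and 541, the erythroid marker Car1 to between 259 and 430, 539 and 1776, and 74.8 and 146, and the adipocyte marker Lpl to between 28.6 and 105, 156 and 193, and 0 and 12.7. None of these markers was at 0 in all libraries of a medium, and 0 of 9 stromal cell markers were in the table. On the authors' scale the T cell and natural killer sums were lower in both conditioned media without overlap. The B cell and myeloid sums were lower in adipocyte medium on that scale. There 5 of 5 B cell, 7 of 8 myeloid and 4 of 5 neutrophil markers fell, as did 63.4% of all tested genes. Cd14 did not pass the threshold, and the neutrophil marker Ngp rose (log2 difference 1.57). Lyz2, at 3314 in unconditioned medium, was the largest part of the myeloid sum. In stromal medium 3 myeloid markers fell and Cd14 rose (1.99), where 36.6% of all tested genes fell and 21.1% rose. Of all tested genes, 44.2% lay lower without overlap in stromal and 63.4% in adipocyte medium. Cd8a rose in stromal medium (log2 difference 0.30, limma adjusted p = 0.00775), Cd8b1 did not pass the threshold (-0.12), and Cd3e and Cd3g fell. The T cell list had a median of -0.34 there, and the median of ratios moved the median gene up by 0.36. The natural killer sum was carried by Klrd1, at 8973 in unconditioned, 4049 in stromal and 4108 in adipocyte medium, while Klre1 went the other way in adipocyte medium, from 274 to 592 (log2 difference 1.12, limma adjusted p = 1.83e-05). The part of these markers in the results was not tested.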

How the data were processed

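RNA of 9 samples (3 media, 3 mice) was sequenced from SMART-seq v4 cDNA with Nextera XT libraries, per the labels' protocols. FastQC, Trimmomatic, featureCounts and DESeq2 are named, without versions, in the submitters' processing notes, as are the builds GRCm39, GRCh38 and hg38. No source used here gives the aligner, annotation or strand setting.

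The authors deposited a normalized signal for 2889 genes, read counts divided by 1 size factor per sample: 100% of values divided by the lowest nonzero value of their library come within 0.01 of a whole number, which gives the reads back. The table holds genes the authors called changed, though not all of them, so shares of called genes are over that selection. The authors also deposited, per the file headers, a mean signal, a log2 fold change with its error, a Wald score and p-values for each conditioned medium. The cluster number is the authors'.

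Values were analysed as log2(value + 1), which understates changes of low genes, with limma-trend (limma 3.58.1, R 4.3.3) over the 2868 genes with a mean of at least 1. All 9 samples were in 1 fit with the medium as factor. Tests were two-sided with Benjamini-Hochberg adjustment over all genes tested and a threshold of 0.05. All 3 members passed the filter. The fit was also run on simulated counts with changes planted in the stromal samples only, unlike the real data, and no result here rests on that run. Alternatives were TMM, the median of ratios, other pseudocounts and filters, the mouse as a block, fits of 2 groups, leaving out samples, and edgeR 4.0.16 and DESeq2 1.42.0 on whole reads. Samples with 1 number came from 1 mouse per the labels. Correlations of their deviations from group means ranged from -0.12 to 0.26. The highest correlation with another mouse ranged from -0.094 to 0.14. Between stromal and adipocyte medium it exceeded that with the same mouse for mouse 2 (0.14 against -0.12) and mouse 3 (0.088 against 0.060).

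The members and lists were chosen with earlier results of these data known. Named were the members, the 3 genes with the highest Pearson r to each, the 3 genes on either side of a 4-fold fall, and up to 4 genes per list with the smallest adjusted p. Gene models and promoter windows came from GENCODE M21 and RefSeq (GRCm38), not the build of the files.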

Additional observations from a re-analysis of the deposited data

How the results depend on the processing

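Across 22 alternatives the direction and call of Scaper and Slc25a35 in adipocyte minus unconditioned held (0.56 to 1.63, adjusted p from 3.87e-05 to 0.0444, and -2.34 to -1.22, adjusted p from 3.39e-21 to 3.14e-04). The unconditioned samples of that comparison were used to choose the genes, by being high, which favours a fall such as that of Slc25a35. In adipocyte minus stromal, whose stromal samples were used to choose the genes, Scaper ranged from 2.70 to 3.65 and Rgs11 from 1.67 to 2.48. Values that did not hold came from rescaling or a left-out library. By the median of ratios, Rgs11 in adipocyte minus unconditioned was 0.85, Slc25a35 in adipocyte minus stromal was 0.68 and Slc25a35 in stromal minus unconditioned was -1.90. TMM put Rgs11 in adipocyte minus unconditioned at 0.37. Rescaling adds 1 constant per contrast by construction. Leaving out samples moved Slc25a35 in adipocyte minus stromal between -0.086 and 0.40; the cause was not tested. Other ranges over left-out samples were -2.68 to -2.11 for Scaper, -2.36 to -2.16 for Slc25a35 and -2.14 to -1.75 for Rgs11 in stromal minus unconditioned, and -0.15 to -0.0098 for Rgs11 in adipocyte minus unconditioned. With the mouse as a replicate block 1665, 2788 and 2619 genes were called in stromal minus unconditioned, adipocyte minus unconditioned and adipocyte minus stromal, against 1655, 2787 and 2609 without it, and the pairing changed no call of a member (adjusted p = 0.00955 for Scaper in adipocyte minus unconditioned). Under edgeR Rgs11 was at -0.072 in that comparison (adjusted p = 0.670) and under DESeq2 at -0.072 (adjusted p = 0.686). With 3 mice, the interval of Rgs11 in adipocyte minus unconditioned (-0.46 to 0.31) sets the size of difference that could not be told from 0 for that gene.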

Other observations

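The other 14 genes with a fitted fall of at least 4-fold in stromal minus unconditioned, beside Scaper and Slc25a35, were mostly of low level and were named after their values were seen. Lrrc75b had the lowest difference, with 166 normalized counts (mean) in unconditioned, 5.85 in stromal and 7.82 in adipocyte medium. Gabrr2, which encodes a GABA receptor subunit, went from 391 to 79.1 in stromal medium and stood at 299 in adipocyte medium. On the authors' scale Gabrr2 was thus, like Rgs11, nearer to its unconditioned level in adipocyte medium. Tmem35b went from 604 to 138 and 107, and Ahrr, which encodes a repressor of the aryl hydrocarbon receptor, from 26.3 to 3.59 and 1.95. In adipocyte minus unconditioned the 14 genes had log2 differences from -4.47 (Arhgef37) to -0.42 (Gabrr2) on the authors' scale, whereas Scaper was at 0.70. The median of ratios moved the median gene up by 0.93 in this comparison, so the signs of the smaller falls depend on the scale.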
